A study of Mus musculus with 60 samples.

Results

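The canonical Wnt pathway was followed through hepatocyte culture and liver regeneration in the mouse by 10 of its genes, Axin2, Rnf43, Znrf3, Lgr4, Lgr5, Ctnnb1, Tcf7, Lef1, Tbx3 and Sp5. They were picked by name as feedback regulators, receptors, transducers and targets of the pathway, and are 10 of 19456 genes listed in the RNA-seq tables. The cell table holds 33 samples in 11 groups of 3: freshly isolated hepatocytes, hepatocytes kept for 3 or 14 days (D3, D14) without passage (P0) in a medium with EGF, HGF, IL6 and dexamethasone, the passaged progenitor-like cells grown in it (IL6-iHPCs: mouse-1 at P10 and at P35, mouse-2 at P10, clone-1 at P20), and the same 4 populations after maturation with dexamethasone and oncostatin M (IL6-iMHs). By the methods the maturation medium held more dexamethasone than the first medium and lists no EGF, HGF or IL6. Maturation and the withdrawal of these factors thus cannot be told apart. The liver table holds 18 samples in 6 groups of 3: normal liver and liver 6 h, 24 h, 3, 7 and 14 days (PHX-D3, PHX-D7, PHX-D14) after removal of 2/3 of the organ (partial hepatectomy, PHX). The labels give every sample as WT and C57BL/6 (C57BL/6J in the methods), and the mice were 8 to 10 weeks old. Mouse-1 at P10 and P35 is a single line at different passages, and clone-1 is a single clone. The clones described in the methods came from hepatocytes of Albumin-Cre and R26RtdTomato offspring, and whether clone-1 is one of them is not given in the sources used here. The 4 populations thus stand for 2 mice and 1 clone. The cell replicates are repeats of a culture and nothing in the labels ties the 3 liver samples of a group to separate animals, so p-values measure only the spread between these samples.

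Wnt ligands bind Frizzled and Lrp receptors and stop the destruction complex from degrading β-catenin, the product of Ctnnb1, which then acts in the nucleus with the Tcf and Lef DNA-binding factors. Rnf43 and Znrf3 are ubiquitin ligases that remove Frizzled from the membrane, R-spondins bound to Lgr4 or Lgr5 block them, and Axin2 is a scaffold of the destruction complex. Axin2, Rnf43, Znrf3, Lgr5, Tbx3 and Sp5 are known targets of the pathway, so that several of its brakes are made in response to it. In the liver, endothelial cells around the central vein release Wnt ligands and R-spondin 3, and hepatocytes near that vein express the targets along with glutamine synthetase (Glul) and the cytochrome Cyp2e1.

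The Tcf and Lef factors recognise the letters CTTTGAT, or ATCAAAG on the other strand. RefSeq (GRCm38.p6) gave 13 promoters for 7 of the genes, and the 250 bases before the start site of 1 of them, that of Sp5, held these letters, against 3.21% of 32851 mouse promoters. The Sp5 window (chr2:70474673-70474922, plus strand, directly before exon 1) is shown with the match in capitals, beside the window before the outermost Rnf43 start (chr11:87662837-87663086, plus strand), which had no match. Both genes fell together in liver 6 h after hepatectomy.
Sp5: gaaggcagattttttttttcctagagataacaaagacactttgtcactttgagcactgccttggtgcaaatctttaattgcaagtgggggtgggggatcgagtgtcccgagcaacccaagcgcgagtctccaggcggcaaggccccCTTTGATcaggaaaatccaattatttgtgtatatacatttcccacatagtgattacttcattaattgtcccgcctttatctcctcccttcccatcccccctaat
Rnf43: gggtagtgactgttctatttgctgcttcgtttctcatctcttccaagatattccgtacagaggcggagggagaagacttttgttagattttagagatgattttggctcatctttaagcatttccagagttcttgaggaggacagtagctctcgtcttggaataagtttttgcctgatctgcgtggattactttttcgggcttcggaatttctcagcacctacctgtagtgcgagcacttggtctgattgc
A match of letters is a description and no match says only that these letters are not in this window. The Axin2 gene lies at chr11:108917828-108950783, Lgr4 at chr2:109917647-110014257, Ctnnb1 at chr9:120933400-120960507, Tcf7 at chr11:52246527-52283383 and Lef1 at chr3:131110297-131224357. Lgr5 lies at chr10:115450314-115587780, Znrf3 at chr11:5276329-5444847 and Tbx3 at chr5:119670534-119684724.

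Levels are in FPKM (fragments per kilobase of transcript, scaled to library size), which allows genes to be compared per length. The FPKM steps gave back whole reads, 49299119 to 88877787 assigned to genes per cell sample and 52073901 to 79266741 per liver sample. Genes with at least 1 FPKM in 3 samples were tested with limma on log2(FPKM + 1), on which scale the change of a low gene is understated, and a gene counted as called when it passed an adjusted p of 0.05 and differed by 2-fold or more. By this filter 6 of the 10 genes were tested in cells (not Axin2, Lgr5, Lef1 and Sp5) and 9 in liver (not Lef1). The 8 hepatocyte markers, of which 7 are listed, summed to 84642 to 91798 FPKM in hepatocytes, 2771 to 17291 FPKM in cultured and passaged cells and 60734 to 85762 FPKM in IL6-iMHs. The sum in matured cells was near that of fresh hepatocytes, yet 3 of the 7 markers were lower in IL6-iMHs than in hepatocytes (Apoa2 at -7.65, Ttr at -2.10 and Serpina1a at -1.69 on the log2 scale, and 4 of 7 after the median-ratio scaling described next). The median gene itself was higher in culture than in hepatocytes, by 1.14 (D3), 1.00 (D14), 0.93 (passaged) and 0.46 (IL6-iMHs) on the log2 scale, so the same tests were also run after a median-ratio scaling that brings this shift to between -0.01 and 0.08. The values after this scaling are given where they change a call or a direction described below.

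In passaged cells the Wnt genes went separate ways. Tbx3 was nearly lost, Lgr5, Lef1 and Sp5 were at or near 0 reads, and Ctnnb1, Rnf43 and Znrf3 were higher than in fresh hepatocytes on the FPKM scale. Against hepatocytes, 3 of the 6 tested genes rose at D3 and 0 fell (66.0% of all genes were called), 4 rose at D14 (62.9%), and 3 rose and 1 fell in the passaged cells (59.4%). In IL6-iMHs 1 fell (32.6%). Znrf3 and Tcf7 were below 1 FPKM in every hepatocyte sample, so they passed the filter only through cultured groups where they are high. Their rises here and below carry this limit. The filter also left out Axin2, Lgr5, Lef1 and Sp5, so it shaped the split into genes that rose and fell. All genes were called higher at 53.9% at D3, 50.0% at D14 and 48.1% in passaged cells, close to the shares of the 6. Their median was 1.45 against 1.14 for all genes at D3 and 1.25 against 0.93 in passaged cells. After median-ratio scaling 2 rose at D3 (Tcf7 and Znrf3), none of the 6 was called at D14, and only the fall of Tbx3 remained in passaged cells and in IL6-iMHs. The split of all calls moved as well, from 53.9% higher and 12.1% lower to 26.0% and 28.3% at D3, from 50.0% and 12.9% to 25.8% and 28.1% at D14, from 48.1% and 11.3% to 23.3% and 25.6% in passaged cells, and from 24.8% and 7.79% to 13.5% and 16.8% in IL6-iMHs.

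**Figure D1:**
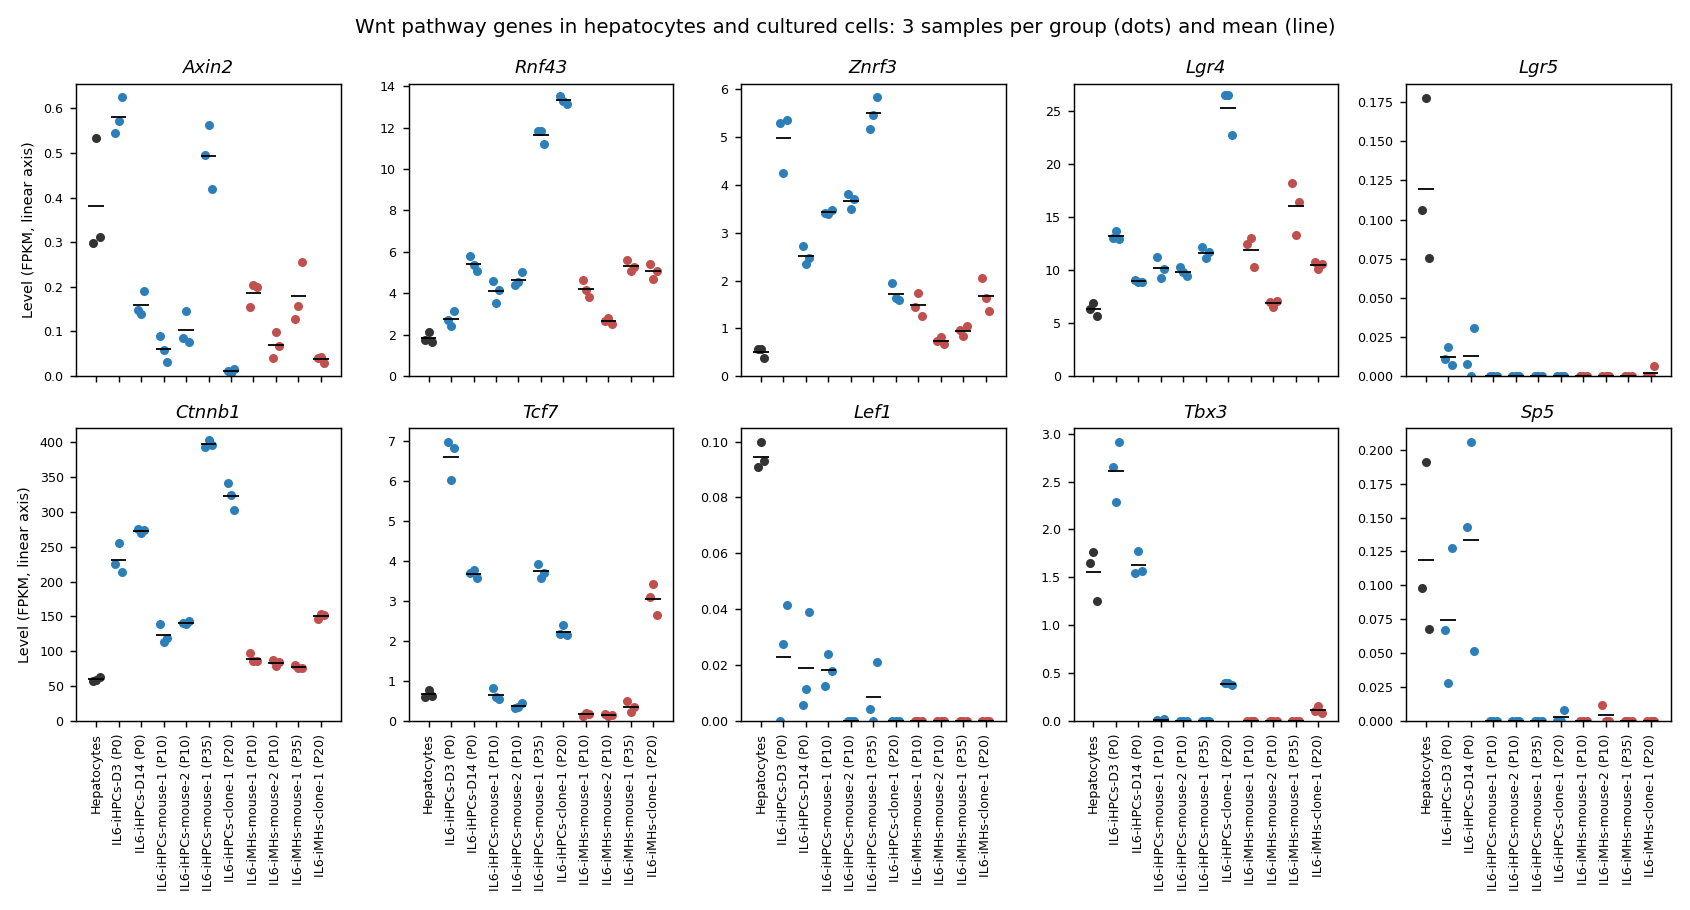
Level in FPKM (linear axis, a separate scale for each gene) of the 10 genes in the 11 cell groups, with 3 samples per group as dots and their mean as a line. Tbx3 stays between 1.25 and 2.91 FPKM through D14 and reaches at most 0.396 FPKM in every passaged or matured sample, and Lgr5, Lef1 and Sp5 are above 0.05 FPKM only in hepatocytes or unpassaged cultures.

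Among the feedback regulators, Znrf3 stood at 0.563, 0.569 and 0.386 FPKM in hepatocytes and at 5.30, 4.25 and 5.37 FPKM at D3. The groups lie far apart, and the rise of 1.98 ± 0.09 (log2, SE; adjusted p = 2.65e-19, limma) was 1.09 after median-ratio scaling, still past both thresholds, and 0.51 with quantile normalization, not called. It was lower again at D14 (2.34 to 2.73 FPKM) and ranged from 1.59 to 5.85 FPKM, with a median of 3.49, over the 12 passaged samples. In the passaged cells the change was 1.54 ± 0.07 (adjusted p = 3.98e-19). At D14 and in passaged cells the call was lost with median-ratio scaling (0.52 and 0.88).

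Rnf43 was at 1.75, 2.11 and 1.65 FPKM in hepatocytes, 2.69, 2.43 and 3.13 FPKM at D3. By D14 it was at 5.81, 5.35 and 5.07 FPKM. The passaged samples ran from 3.51 to 13.5 FPKM with a median of 8.13, highest in clone-1 (mean 13.3) and in mouse-1 at P35 (mean 11.6). Every passaged sample lay above every hepatocyte sample. In each passaged population, 65.6% to 74.8% of all tested genes did so too. The rise was 1.18 ± 0.08 at D14 (adjusted p = 2.78e-14, limma) and 1.58 ± 0.06 in passaged cells (adjusted p = 4.43e-20). Median-ratio scaling put it at 0.10 at D14 and 0.56 in passaged cells and quantile normalization at -0.25 and 0.26, none of them called. At D3 its difference of 0.40 turned to -0.75 with median-ratio scaling and to -1.17, a call, with quantile normalization, so no direction holds at D3 or D14. Axin2, the third feedback gene, was low throughout, at 0.299, 0.534 and 0.311 FPKM (75 to 177 reads) in hepatocytes. It was at 0.546 to 0.625 FPKM at D3, 0.140 to 0.190 FPKM at D14, 0.419 to 0.564 FPKM in mouse-1 at P35 and 0.00736 to 0.0154 FPKM (2 to 4 reads) in clone-1. The clone thus had the highest mean of Rnf43 and the lowest of Axin2, though both are targets of the same pathway.

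Of the R-spondin receptors, Lgr4 was expressed everywhere and Lgr5 hardly in cells. Lgr4 stood at 5.64 to 6.88 FPKM in hepatocytes, at 12.9 to 13.7 FPKM at D3 and at 22.7 to 26.5 FPKM in passaged clone-1, the highest group. Its differences from hepatocytes, 0.97 ± 0.09 at D3 and 0.96 ± 0.07 in passaged cells, did not reach 2-fold, except without hepatocyte replicate 2 (1.03 and 1.02). With median-ratio scaling the direction turned, to -0.49 at D3, -0.83 at D14 (0.45 on the FPKM scale) and -0.26 in passaged cells, none of them called. Lgr5 gave 34, 65 and 20 reads in the hepatocyte samples (0.0753 to 0.178 FPKM), 2 to 6 reads at D3, 0 to 8 reads at D14 and 0 reads in all 12 passaged samples. Of the 12 IL6-iMH samples, 11 had 0 reads and 1 had 2. Set against a floor of 3 reads per library, Lgr5 was at least 9.28- to 11.4-fold lower in the 4 passaged populations than in hepatocytes, counting error only.

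Ctnnb1 was the most abundant of the genes in every sample. It was at 57.8, 59.4 and 63.1 FPKM in hepatocytes, 225, 256 and 213 FPKM at D3. It stayed at 275, 269 and 274 FPKM through D14 and ranged from 114 to 402 FPKM in passaged cells. No cultured sample overlapped the hepatocytes. In each cultured group, 57.1% to 74.8% of all tested genes also lay wholly above them. The rise was 1.92 ± 0.07 at D3 (adjusted p = 2.15e-21, limma), 2.16 ± 0.07 at D14 (adjusted p = 1.35e-22) and 1.84 ± 0.05 in passaged cells (adjusted p = 1.68e-23). With median-ratio scaling it was 0.32 at D3, 0.74 at D14 and 0.50 in passaged cells, none of them called, and at D3 with quantile normalization it was 2.37 and called, so the size of this change depends on how the libraries are set to each other. In IL6-iMHs the 12 samples lay between 75.5 and 154 FPKM.

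The nuclear factors differed from each other. Tcf7 was at 0.608, 0.777 and 0.612 FPKM in hepatocytes and at 6.97, 6.02 and 6.83 FPKM at D3, its highest group. This rise of 2.19 ± 0.07 (adjusted p = 4.01e-22, limma) was 1.20 and still called after median-ratio scaling, and 0.67 and not called with quantile normalization. At D14 Tcf7 was at 3.57 to 3.78 FPKM, and its call was lost with median-ratio scaling (0.69). In passaged cells its difference of 0.54 was -0.16 with that scaling, neither of them called. The passaged populations then split, with means of 0.650 and 0.372 FPKM in mouse-1 and mouse-2 at P10, 3.74 FPKM in mouse-1 at P35 and 2.23 FPKM in clone-1. Lef1, which binds the same DNA letters, was at 17 to 25 reads (0.0910 to 0.0997 FPKM) in hepatocytes, at most 8 reads in any cultured sample, and 0 reads in all 12 IL6-iMH samples. The IL6-iMH populations were at least 5.61- to 6.46-fold lower than hepatocytes by the 3-read floor.

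Of the target factors, Tbx3 was at 1.65, 1.77 and 1.25 FPKM (349 to 675 reads) in hepatocytes and at 2.65, 2.28 and 2.91 FPKM at D3. By D14 it was at 1.54, 1.78 and 1.56 FPKM. Its differences of 0.50 at D3 and 0.04 at D14 were not called and turned to -0.60 and -0.90 with median-ratio scaling, not called, and to -1.08 and -1.42 with quantile normalization, both called. In passaged clone-1 it was at 0.393, 0.396 and 0.370 FPKM, and in the other passaged samples at most 6 reads were found. All 9 IL6-iMH samples of the mouse lines, and all 6 passaged samples of mouse-2 and of mouse-1 at P35, had 0 reads, at least 141- to 162-fold lower than hepatocytes by the 3-read floor. The fall was -1.23 ± 0.04 in passaged cells (adjusted p = 1.68e-21, limma) and -1.31 ± 0.04 in IL6-iMHs (adjusted p = 7.89e-22), and it was called under every scaling tried. Clone-1 is the exception among the populations, with 111 to 146 Tbx3 reads before and 27 to 46 after maturation. Sp5, a zinc-finger factor, had 14, 31 and 8 reads in hepatocytes (0.0677 to 0.191 FPKM), 4 to 16 at D3, 6 to 23 at D14 and at most 2 in any later sample.

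A test on the recovered reads of all genes with at least 10 reads in 3 samples (limma-voom) was added after the data were seen, since it takes in the 4 low genes. It called Lgr5, Lef1 and Sp5 lower than in hepatocytes at D3 and, with Axin2 and Tbx3, at D14, in passaged cells and in IL6-iMHs. All genes were called lower at shares of 29.0%, 28.5%, 28.2% and 21.6%. In passaged cells the adjusted p was 3.33e-17 for Lgr5, 1.29e-12 for Lef1, 8.06e-14 for Sp5 and 8.38e-15 for Axin2. Lgr5 and Lef1 reached 10 reads in 3 samples only, those of hepatocytes. Sp5 did so in 5, all of them hepatocytes or unpassaged cultures. Lgr5, Lef1 and Sp5 thus entered this test through groups where they are high. Their lower calls were close to fixed by the filter and add no support to the read numbers. At D3 this test gave -1.02 for Rnf43, a call in the other direction from the FPKM value. The lower call of Sp5 at D14 also goes against its FPKM. Its mean there was 0.133 FPKM against 0.119 FPKM in hepatocytes, with overlapping ranges.

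**Figure D2:**
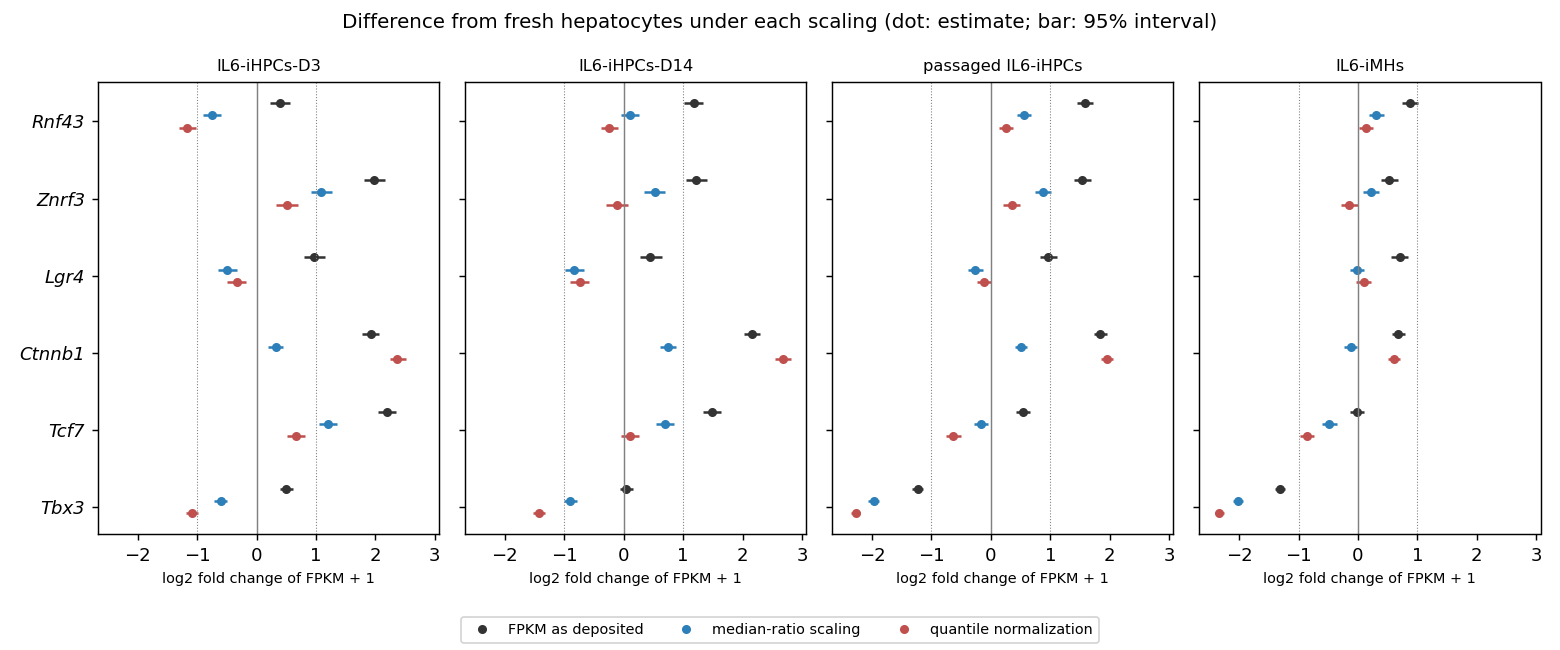
Difference from hepatocytes (log2 scale, horizontal axis; dots are estimates, bars 95% confidence intervals) of the tested genes under the different ways of setting the libraries to each other. Tbx3 stays below 0 in passaged cells and IL6-iMHs in all of them, while Rnf43 at D3 is at 0.40 on the FPKM scale and at -0.75 with median-ratio scaling.

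Cells other than hepatocytes were also present in the fresh preparation. The 8 endothelial markers summed to 23.7 to 27.6 FPKM in hepatocytes, 10.4 to 12.6 FPKM at D3 and at most 3.05 FPKM in any later group. The lower sum at D3 came with Clec4g (mean 12.6 FPKM in hepatocytes and 0.431 at D3) and Fcgr2b (6.34 and 2.74), while Cdh5 (0.891 and 2.58), Lyve1 (0.260 and 0.937), Pecam1 (0.969 and 1.62) and Stab2 (1.09 and 1.43) had higher means at D3. The 8 T-cell markers summed to 6.10 to 6.28 FPKM in hepatocytes and at most 0.977 FPKM in any cultured sample. The 8 Kupffer cell markers summed to 14.6 to 16.8 FPKM in hepatocytes and 0.0205 to 21.3 FPKM in cultured samples, and the defining Clec4f and Timd4 were at 0 in every cultured group. The genes most like Lgr5 over the 11 group means were H2-Eb1, C1qc and Tex12 (Pearson r = 0.999, 0.999 and 0.998 on log2(FPKM + 1)), and those most like Lef1 were Fcer1g, Ptprcap and Tmem30b (r = 0.981, 0.979 and 0.977). For Sp5 the nearest were Cyba, Bgn and Slc13a3 (r = 0.986, 0.979 and 0.978). Of the genes named for Lgr5 and Lef1, H2-Eb1, C1qc, Fcer1g and Ptprcap are genes of immune cells. These r values rest on group means that share their libraries, and the part of such cells in the loss of Lgr5, Lef1 and Sp5 was not tested. Lgr5 had a mean of 0.120 FPKM in hepatocytes and at most 0.01285 FPKM in any other group. For Lef1 these were 0.0947 and 0.0229 FPKM. Any gene seen mainly in the fresh preparation would thus give a high r with either. In bulk samples, fewer cells of a type and less RNA per cell cannot be told apart. Biliary markers went the other way, from a sum of 6.23 to 9.14 FPKM in hepatocytes to 2720 to 11033 FPKM in passaged cells and 223 to 1421 FPKM in IL6-iMHs. Most of the sum in passaged cells was Spp1, with population means of 2215 to 10348 FPKM. Epcam and Cftr, which were not tested, had means of at most 0.553 and 0.0230 FPKM there. Of the 6 tested, 6 were higher than in hepatocytes in passaged cells and 5 in IL6-iMHs, with median-ratio scaling too. Krt7 and Cdh6 were at 0 and Krt19 at a mean of 0.0273 FPKM in hepatocytes. These markers passed the filter at 1 FPKM only through cultured groups where they are high, so the count of 6 is in part fixed by the filter. The part of the biliary markers in the Wnt gene changes was not tested.

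Maturation was the next comparison, IL6-iMHs against IL6-iHPCs with the 4 populations weighted equally. It takes in the whole change of medium, with EGF, HGF and IL6 left out. Ctnnb1 fell by 1.16 ± 0.03 on the log2 scale (adjusted p = 3.00e-23, limma) and Znrf3 fell by 1.01 ± 0.04 (adjusted p = 2.37e-19), 2 of 6 genes against 28.1% of all genes called. Neither was called after median-ratio scaling (-0.63 and -0.67), where all genes split into 12.7% higher and 8.56% lower in place of 6.68% and 21.4%. With the 4 population means as the units the adjusted p was 0.0718 for Ctnnb1 and 0.0780 for Znrf3 by limma. These units count mouse-1 at P10 and at P35 apart, though they are a single line. Znrf3 sat at the 2-fold threshold, and leaving out any of 5 single libraries (mouse-1 IL6-iMHs at P10 replicate 3 and at P35 replicate 2, clone-1 IL6-iMHs replicate 3, passaged mouse-1 at P35 replicate 3 and clone-1 replicate 1) left its difference just under 2-fold, the smallest at -0.98, and not called.

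The populations did not change alike on maturation. An F test for unequal change among the 4 populations was passed by all 6 tested genes, though 96.3% of all genes passed it. Ctnnb1 fell by 2.34 in mouse-1 at P35 and by 1.09 in clone-1, and its difference was -0.46 in mouse-1 at P10 and -0.74 in mouse-2. Tcf7 went from 3.58 to 3.94 FPKM down to 0.224 to 0.496 FPKM in mouse-1 at P35, a fall of 1.81. In clone-1 it was at 2.14 to 2.39 FPKM before and 2.64 to 3.42 FPKM after, a difference of 0.32 with no overlap. Lgr4 fell by 1.19 in clone-1, with differences of 0.42 in mouse-1 at P35 and -0.46 in mouse-2. Znrf3 fell by 1.43 in mouse-2 and by 1.73 in mouse-1 at P35, and the difference was -0.02 in clone-1. Rnf43 fell by 1.24 in clone-1 and differed by 0.04 in mouse-1 at P10. In all, 0 of the 6 genes were called in mouse-1 at P10 (25.0% of all genes), 3 in mouse-1 at P35 (45.3%), 1 in mouse-2 (39.9%) and 3 in clone-1 (23.6%).

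**Figure D3:**
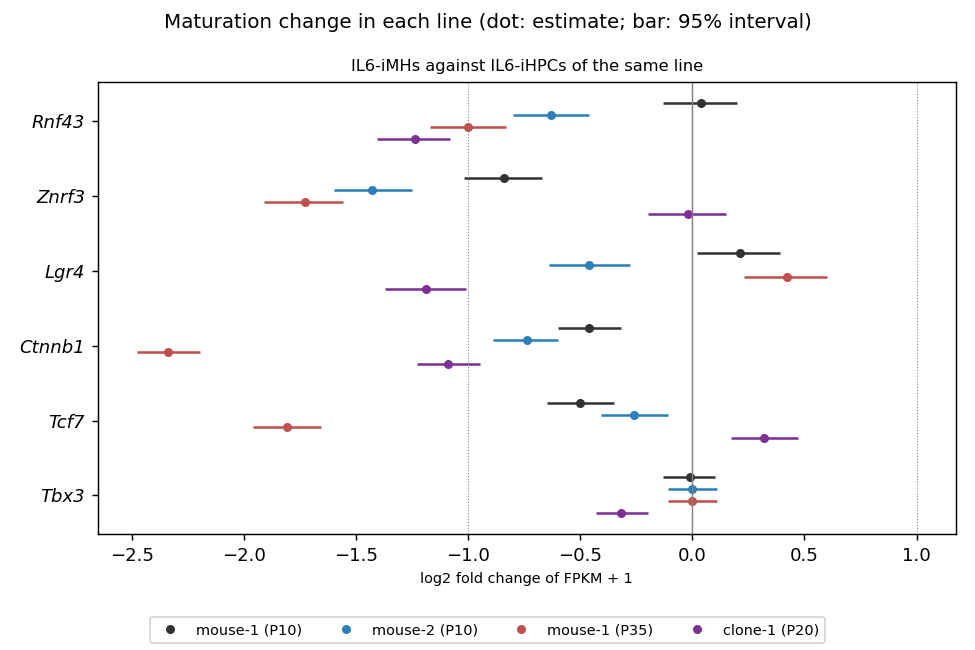
Change on maturation, IL6-iMHs minus IL6-iHPCs, for the 6 tested genes in each of the 4 populations (log2 scale, horizontal axis; dots are estimates, bars 95% confidence intervals). Ctnnb1 and Tcf7 are lowest in mouse-1 at P35 (-2.34 and -1.81), and in clone-1 Tcf7 is at 0.32.

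Long passage was compared within mouse-1. From P10 to P35 Ctnnb1 rose by 1.68 ± 0.07 (from 114 to 138 to between 393 and 402 FPKM), Tcf7 by 1.52 ± 0.07 (from 0.543 to 0.815 to between 3.58 and 3.94 FPKM) and Rnf43 by 1.32 ± 0.08 (from 3.51 to 4.60 to between 11.2 and 11.8 FPKM). These were 3 of 6 genes, against 33.7% of all genes called, and the adjusted p was 2.51e-19, 1.23e-17 and 4.78e-15 by limma. Ctnnb1 and Tcf7 (1.16 and 1.12) kept their call after median-ratio scaling and Rnf43 (0.84) did not, while all genes split into 12.1% higher and 13.8% lower in place of 24.8% and 8.94%. Axin2 went from 7 to 19 reads to between 105 and 157 reads, and the added test on reads put its change at 2.69 (adjusted p = 1.46e-07, 41.3% of all genes called). Marker genes moved between these passages too. Of the 7 hepatocyte markers 4 fell, Fgb by 2.94, Ttr by 2.58, Alb by 2.19 and Serpina1a by 1.88 (6 of 7 were lower after median-ratio scaling). Of the biliary markers 2 rose and 2 fell, with Krt19 going from a mean of 7.65 to 510 FPKM and Sox9 from 41.5 to 5.52 FPKM. Their part in the change of the Wnt genes was not tested. A single line carries this comparison, so passage and culture cannot be told apart.

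The rest of the pathway gives the setting. Of all genes, 48.1% were called higher and 11.3% lower in passaged cells (23.3% and 25.6% after median-ratio scaling). Of the 19 Wnt ligands, 8 were tested in cells and 5 rose and 1 fell in passaged cells, with Wnt10a at 2.49 and Wnt5b at -1.66. The ligand median was 1.39 against 0.93 for all genes. Wnt2, an endothelial ligand, was at 0.280 to 0.313 FPKM in hepatocytes and listed at 0 in all but 2 cultured samples. Rspo3 was listed at 0 in 2 of 3 hepatocyte samples and was at 0.383 to 3.35 FPKM in passaged cells, where it rose by 1.33 ± 0.06. Of 17 receptors 12 were tested and 5 rose in passaged cells, led by Fzd5 at 2.75. The receptor median of 0.75 was below the 0.93 of all genes, and with median-ratio scaling 2 were higher and 3 lower. Of the 13 destruction complex genes 12 were tested and 9 rose, led by Apc at 3.08, with a median of 1.72 against 0.93 for all genes. Of the 14 nuclear partners 13 were tested and 9 rose, led by the coactivator Ep300 at 3.33, with a median of 1.83. Median-ratio scaling left 5 higher and 1 lower in the destruction complex and 6 higher and 3 lower among the nuclear partners. Tcf7l2, another Tcf factor of adult liver, rose from 0.568 to 1.00 FPKM to between 3.06 and 4.06 FPKM in passaged cells, by 1.35 ± 0.08, and fell by 1.22 ± 0.05 on maturation.

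Target genes outside the 10 did not move as a block. Notum, a secreted Wnt inhibitor, was at 10.1 to 10.9 FPKM in hepatocytes and at most 0.0326 FPKM in passaged cells, a fall of 3.50 ± 0.03. Of 15 pericentral liver genes 14 were tested, and 2 rose and 10 fell in passaged cells, with a median of -3.92. Of all genes, 48.1% were called higher there and 11.3% lower. Cyp2e1 went from 2569 to 2824 FPKM to at most 0.0156 FPKM, a fall of 11.41 ± 0.07. Glul, its neighbour around the central vein, rose by 2.31 ± 0.04, from 13.1 to 14.5 FPKM to between 37.3 and 139 FPKM. The loss was not particular to pericentral genes, since 12 of 14 periportal genes fell too, with a median of -6.79. Of 15 broad targets 11 were tested and 7 rose and 1 fell, among them Ccnd1, the gene of cyclin D1, at 5.51 ± 0.07 (2.16 to 2.33 FPKM in hepatocytes and 65.4 to 285 FPKM in passaged cells), and Jun at -2.98. After median-ratio scaling the split was 7 and 1 again. In IL6-iMHs Cyp2e1 was back at 3.28 to 17.4 FPKM in the mouse lines and at 0.0262 to 0.0954 FPKM in clone-1.

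In regenerating liver the Wnt genes were lowest at 6 h. Of the 10 genes, 9 had all 3 samples at 6 h below all 3 of normal liver, as did 48.6% of all genes, and 4 of the 9 tested were called lower and 0 higher. All genes were called at a share of 16.3% (11.5% lower). The median difference of the 9 was -0.84 against -0.28 for all genes. At 24 h, PHX-D3, PHX-D7 and PHX-D14 none of the 9 was called against normal liver by limma (7.90%, 5.82%, 8.84% and 2.98% of all genes were called). At an unadjusted p under 0.05 none was at 24 h, Rnf43, Sp5 and Tcf7 were at PHX-D3, Tcf7 and Znrf3 at PHX-D7 and Ctnnb1 at PHX-D14.

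Rnf43 was at 7.54, 3.04 and 4.57 FPKM in normal liver and at 0.817, 0.632 and 0.389 FPKM at 6 h. It fell by 1.85 ± 0.37 (adjusted p = 0.000702, limma). Tbx3 went from 7.29, 3.55 and 6.11 FPKM to 0.665, 1.31 and 1.41 FPKM, a fall of 1.62 ± 0.45 (adjusted p = 0.00697). Sp5 went from 2.27, 1.26 and 1.57 FPKM to 0.204, 0.220 and 0.0834 FPKM, a fall of 1.19 ± 0.29 (adjusted p = 0.00304). These 3 targets were called under quantile normalization and median-ratio scaling too. Lgr4 went from 9.69, 13.2 and 8.88 FPKM to 3.14, 3.76 and 5.52 FPKM, a fall of 1.18 ± 0.30 (adjusted p = 0.00435), and was at -0.88 after median-ratio scaling, not called.

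Lgr5 showed the largest ratio of the 10 at 6 h, from 431, 211 and 140 reads in normal liver to 24, 22 and 25 reads, or from a mean of 0.977 to 0.0720 FPKM. Its difference of -0.84 ± 0.21 on the log2(FPKM + 1) scale missed 2-fold, reached -1.02 and the call without normal liver replicate 3, and was -3.20 ± 0.97 on the log2 scale of reads (adjusted p = 0.0158, the added limma-voom test, which called 11.3% of all genes lower). Axin2 was at 0.274 to 0.535 FPKM at 6 h against 0.653 to 1.74 FPKM, with a difference of -0.58 ± 0.28 that was not called. Znrf3, Ctnnb1 and Tcf7 had differences of -0.48, -0.62 and -0.59, also not called. Between 6 h and 24 h, a comparison added after the values were seen, Tbx3 rose by 1.84 ± 0.45, Rnf43 by 1.41 ± 0.37 and Axin2 by 1.06 ± 0.28 (adjusted p = 0.00535, 0.00783 and 0.00893, limma), 3 of 9 genes against 6.72% of all genes called and a shift of 0.24 in the median of all genes. At 24 h Axin2 stood at 2.40, 1.56 and 1.90 FPKM, its highest group mean. Median-ratio scaling kept Tbx3 and Rnf43 and put Axin2 at 0.95.

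**Figure D4:**
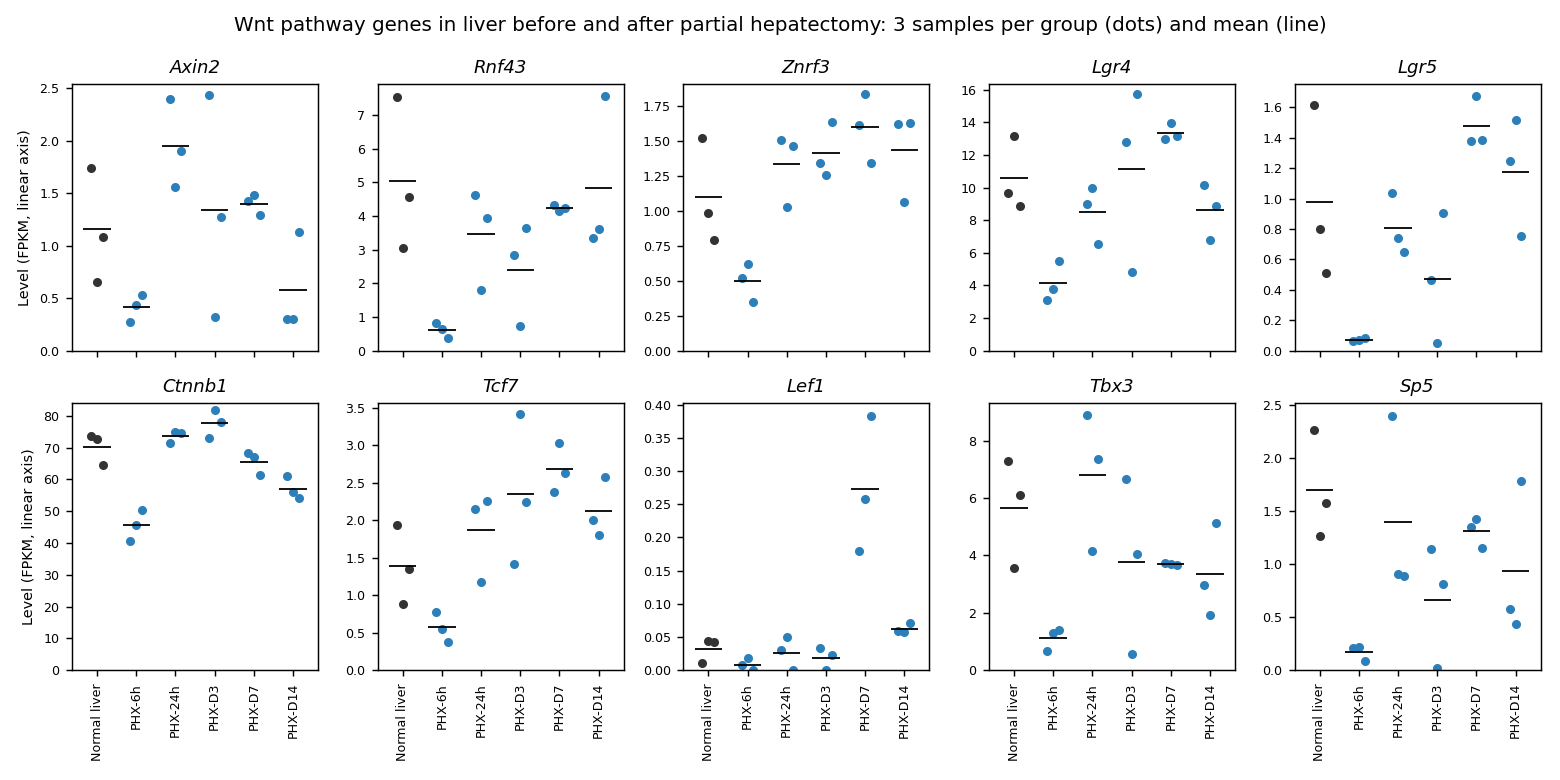
Level in FPKM (linear axis, a separate scale for each gene) of the 10 genes in normal liver and at 5 times after partial hepatectomy, with 3 samples per group as dots and their mean as a line. At 6 h all 3 samples lie below all normal samples for every gene but Lef1, and Lef1 is highest at PHX-D7, at 0.179 to 0.383 FPKM.

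Other readouts at 6 h moved with these genes only in part. They stand beside 16.3% of all genes called at 6 h, with 11.5% lower. Notum, the secreted inhibitor, went from 12.1 to 18.6 FPKM down to 1.82 to 4.73 FPKM, a fall of 1.82 ± 0.40 (adjusted p = 0.00158). Of 15 pericentral genes 2 fell, Cyp7a1, the rate-limiting enzyme of bile acid synthesis, by 4.19 ± 1.26 and the nuclear receptor Nr1i3 by 1.27 ± 0.29, while Glul (330 to 614 FPKM against 266 to 278) and Cyp2e1 (-0.23) were not called. Of the 12 broad targets tested Jun and Myc rose, by 1.88 and 1.58. Of the 4 Wnt ligands tested none was called, with Wnt2 at 0.665 to 1.24 FPKM against 1.69 to 2.06 FPKM (-0.54, adjusted p = 0.0339) and Rspo3 at 3.08 to 4.22 FPKM against 2.69 to 2.84 FPKM. One destruction complex gene of 11, Btrc, fell by 1.13, and Tle2, a corepressor, led the 3 of 12 nuclear partners that fell, at -1.42. Endothelial markers summed to 80.5 to 97.4 FPKM at 6 h against 144 to 161 FPKM, with 4 of 8 lower and 1 higher, and Kupffer cell markers to 58.6 to 120 FPKM against 166 to 267 FPKM, with 7 of 8 lower (2 and 4 lower after median-ratio scaling). None of the 8 defining markers of either list was at 0, hepatocyte markers were at 53642 to 60794 FPKM against 59910 to 66454 FPKM, and the part of these cells in the lower Wnt genes was not tested.

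The liver samples of PHX-D3 were the least alike. Replicate 2 correlated with its group mates at a mean r of 0.892 over all genes, against 0.943 and 0.933 for the other two and at least 0.975 in other liver groups. It had Tbx3 at 0.553 FPKM against 6.67 and 4.03, Sp5 at 0.0166 against 1.14 and 0.815, Lgr5 at 0.0479 against 0.462 and 0.907, and Axin2 at 0.317 against 2.44 and 1.28. Glul was at 34.0 FPKM against 245 and 169, and Cyp2e1 at 398 FPKM against 2801 and 1923. Tcf7 was highest in it, at 3.41 FPKM against 1.42 and 2.24, and Ctnnb1 was at 82.0 FPKM against 73.0 and 78.1. Of the 6 marker lists it had the highest sum of the 3 samples for Kupffer cells (416 FPKM against 241 and 159), biliary cells (152 against 53.8 and 34.6) and stellate cells (223 against 101 and 113). Most of its stellate sum was Dcn (170 FPKM) and most of its biliary sum Spp1 (132 FPKM), so neither sum stands for its whole list. Replicate 2 had the lowest sum for hepatocytes (47273 FPKM against 52328 and 71636), endothelial cells (79.6 against 125 and 111) and T cells (0.280 against 1.60 and 2.79). The part of these cells in its lower Wnt genes was not tested. Without it no gene was called at PHX-D3, with Tbx3 at -0.05, Sp5 at -0.44 and Rnf43 at -0.45. Without replicate 1 Tbx3 was called at -1.21 (adjusted p = 0.0474, limma), and without replicate 3 Rnf43 was called at -1.17 (adjusted p = 0.0332).

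**Figure D5:**
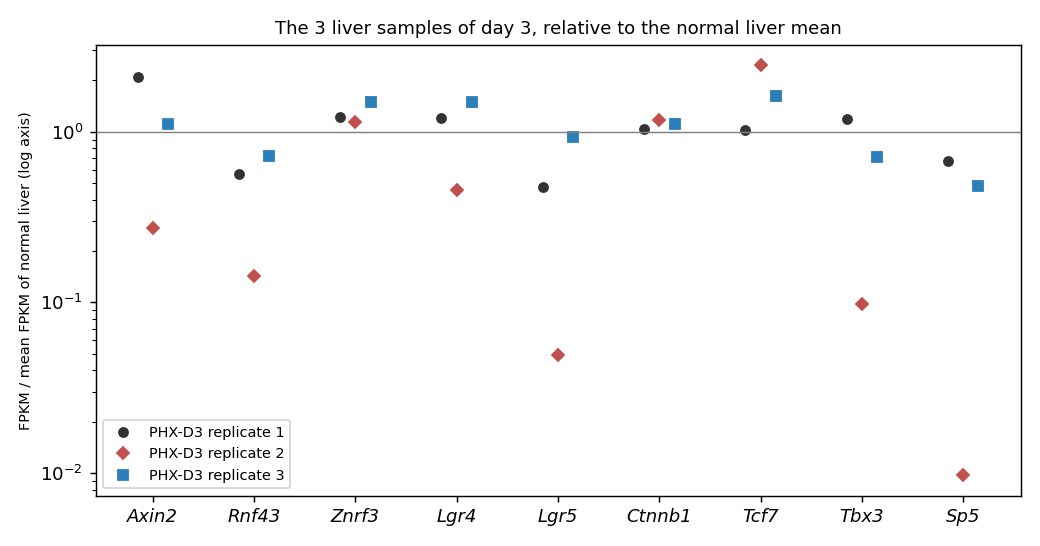
Level of 9 of the genes (not Lef1) in each of the 3 liver samples of PHX-D3, divided by the mean of normal liver (log axis, 1 marks the normal mean). Replicate 2 lies highest for Tcf7 (3.41 FPKM) and Ctnnb1 (82.0 FPKM) and lowest for the other genes.

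Lef1 was the member that stood out at PHX-D7. It gave 42, 61 and 71 reads there against 2, 8 and 8 in normal liver, and 10 to 14 at PHX-D14, and the added test on reads called it at 2.85 ± 0.83 (adjusted p = 0.0182, limma-voom, 10.6% of all genes called higher). Lef1 reached 10 reads in 6 samples, those of PHX-D7 and PHX-D14, so it entered this test only through groups where it is high. The call thus adds no support to the read numbers. The 8 T-cell markers summed to 13.8 to 16.5 FPKM at PHX-D7 against 1.55 to 2.57 FPKM, with 5 of 5 tested higher, and Kupffer cell markers to 970 to 1414 FPKM with 8 of 8 higher. With T-cell sums this low in normal liver, the filter at 1 FPKM favoured T-cell markers high at PHX-D7. The 5 of 5 is thus no separate support. The genes most like Lef1 over the 6 liver group means were Ly6c2, Slamf7 and Hspa1a (r = 0.999, 0.996 and 0.996), of which Ly6c2 and Slamf7 are expressed in leukocytes. Lef1 had a mean of 0.273 FPKM at PHX-D7 and at most 0.0626 FPKM in any other liver group. Any gene high mainly at PHX-D7 would thus give a high r with it. Lef1 is expressed by T cells, and the part of those cells in its level was not tested. At PHX-D14 Axin2 was at 0.305, 0.298 and 1.13 FPKM and Sp5 at 0.573, 0.439 and 1.78 FPKM, each with 1 sample within the normal range and 2 below it, and neither was called.

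The remaining likeness in pattern is given for reference. Over the 11 cell groups Rnf43 was most like N6amt1, Sema3e and Tbc1d2 (r = 0.974, 0.971 and 0.971), Ctnnb1 most like Nono, Ptpn9 and Arhgef40 (r = 0.986, 0.984 and 0.983) and Tbx3 most like Pde8a, Npr2 and Fxyd5 (r = 0.983, 0.982 and 0.978). For Lgr4 the nearest, Mrgpre, was at r = 0.917, the lowest among the 10. Over the 6 liver groups Rnf43 was most like Trmt1 (r = 0.999), Tcf7 like Minpp1 (r = 0.997), Lgr4 like Ogg1 (r = 0.997) and Tbx3 like Arpc5l (r = 0.994).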

How the data were processed

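Liver and cell RNA was sequenced after polyT selection, and the authors deposited 1 table of FPKM values (fragments per kilobase of transcript, scaled to library size) for each set, 33 cell and 18 liver samples. The submitters' processing notes name TopHat 1.4.1, Cufflinks 1.3.0 and mm10. A table of 9 further samples was not analysed here. FPKM steps were divided back into whole reads, which succeeded for 100% of rows with values (largest distance from a whole number 0.0189). Tests used limma 3.58.1 in R 4.3.3 with a mean-variance trend on log2(FPKM + 1), 1 fit per table with all groups, genes at 1 FPKM or more in 3 samples, Benjamini-Hochberg adjustment over all genes tested, and a call at an adjusted p under 0.05 and 2-fold. It was tested on simulated data. Passaged IL6-iHPCs and IL6-iMHs weight 4 populations equally. Alternatives were other pseudocounts, filters, fold thresholds, scalings (quantile, median-ratio), limma-voom on reads, population means as units, a replicate block and leaving out each library. Named genes are the 10, the largest rise and fall of each pathway list per comparison, Wnt2, Wnt9b, Rspo3, Glul, Cyp2e1, Ccnd1 and Tcf7l2, and the 3 genes most like each in pattern. Myc and Nr1i3 were named after their values were seen. The genes and lists were chosen with earlier results of these data known. Levels near 0 reads carry counting error, and floors of 3 reads cover that error only.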

Additional observations from a re-analysis of the deposited data

Results flagged for a closer look

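The change on maturation (IL6-iMHs minus IL6-iHPCs) differed among the 4 populations for all 6 tested Wnt genes by an F test in limma, with an adjusted p of 2.69e-16 for Ctnnb1, 1.66e-16 for Tcf7, 4.57e-13 for Znrf3, 2.3e-12 for Lgr4, 9.64e-11 for Rnf43 and 0.000622 for Tbx3. For Tcf7 the changes ran from -1.81 in mouse-1 at P35 to 0.32 in clone-1 on the log2 scale. For Ctnnb1 they ran from -2.34 in mouse-1 at P35 to -0.46 in mouse-1 at P10, for Lgr4 from -1.19 in clone-1 to 0.42 in mouse-1 at P35, and for Tbx3 from -0.32 in clone-1 to 0.00 in mouse-2 and in mouse-1 at P35, where both states had 0 reads. The same test was passed by 96.3% of all genes. Each population is 1 culture with 3 repeats, and mouse-1 at P10 and at P35 is a single line at different passages. The differences are thus between these cultures, within mouse-1 as well as between lines.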

How the results depend on the processing

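Tbx3 in passaged cells and IL6-iMHs, and Rnf43, Tbx3 and Sp5 at 6 h, kept their calls under quantile and median-ratio scaling. Where either value was called, the directions that turned were in unpassaged cultures against hepatocytes: Rnf43 at D3 was -1.17 with quantile normalization and -1.02 with limma-voom on reads (at both read filters), Tbx3 was -1.08 at D3 and -1.42 at D14 with quantile normalization and -1.33 at D14 with limma-voom (at both read filters), and with quantile normalization at D14 Rnf43 was -0.25 and Znrf3 -0.11. Values not called also changed sign, among them, with median-ratio scaling, Rnf43 (-0.75), Lgr4 (-0.49) and Tbx3 (-0.60) at D3, Lgr4 (-0.83) and Tbx3 (-0.90) at D14, and Lgr4 (-0.26) and Tcf7 (-0.16) in passaged cells. The number of the 10 genes called was 3 (D3), 4 (D14), 4 (passaged), 1 (IL6-iMHs), 2 (maturation), 3 (P35 against P10), 4 (6 h) and 0 at the later liver times. With no fold threshold it was 6 at D3, 5 in IL6-iMHs, 6 for maturation, 8 at 6 h and 1 at PHX-D7, and at 1.5-fold 4 in IL6-iMHs, 7 at 6 h and 1 at PHX-D7. At 4-fold it was 1 at D3 and at D14 and 0 for passaged cells, IL6-iMHs, maturation, passage and 6 h. A pseudocount of 0.1 gave 3 in IL6-iMHs, and a filter at 5 FPKM gave 0 there and 2 at 6 h. Quantile normalization gave 2 at D14, 2 in passaged cells and 1 for maturation. Median-ratio scaling gave 2 at D3, 0 at D14, 1 in passaged cells, 0 for maturation, 2 for passage and 3 at 6 h. On reads, limma-voom gave 2 at D14, 2 in passaged cells and 2 in IL6-iMHs. Not every shift of a count at the other settings is listed. With 10 reads in 3 samples, added after the data were seen, limma-voom gave 6 at D3, 6 in IL6-iMHs, 6 for passage and 1 at PHX-D7. Population means as units, with mouse-1 counted at both passages, gave 0 for maturation. Shares of all genes called are not set beside these counts, so they show only how far the calls depend on the setting. The cause was not tested for any of these. Leaving out single libraries gave ranges of 3 to 4 (D3), 4 to 4 (D14), 4 to 5 (passaged), 1 to 2 (maturation), 4 to 5 (6 h) and 0 to 1 (PHX-D3). Replicate numbers did not pair samples (mean correlation of same-numbered deviations -0.015 in cells, lowest -0.536, and -0.0302 in liver), and a fit with the replicate block left every count as it was, 3, 4, 4, 1, 2, 3, 4 and 0. The planned comparisons in the table of 9 further samples were not run.

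Depth limits Lgr5, Lef1, Sp5 and Axin2 in cells, where levels rest on 0 to 177 reads.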
